A study of Homo sapiens with 4 samples.

Results

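The miR-148 and miR-152 family was taken as its 3 guide strands, hsa-miR-148a-3p, hsa-miR-148b-3p and hsa-miR-152-3p, chosen by name out of the 1474 mature miRNAs with at least 1 count. Small RNA had been sequenced from 4 human colorectal cancer lines with 1 library per line, so no line had a replicate. HCT116 and RKO are the parental lines. HCT116-R and RKO-R are the acquired radioresistant lines, which the methods obtain by giving the parental cells doses of 4 Gy until 40 Gy had been reached. Irradiation had ended weeks before these cells were used. The methods do not say whether a radioresistant line is a single clone, and cell line, culture and library cannot be told apart in this design. The 3 members were listed in all 4 libraries, and none was lost to a filter on low counts.

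A mature miRNA guides an Argonaute protein to messenger RNAs, mainly by pairing of its seed, the bases near its 5′ end. Members of a family share the seed and therefore much of their target range, while they can come from separate genes with separate control. The miR-148 and miR-152 family is known for targeting DNMT1, the maintenance DNA methyltransferase. Its own genes are in turn known to be silenced by DNA methylation in tumors of the digestive tract.

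The mature sequences are shown because the family is defined by them and because the members differ at few bases. They are the RefSeq sequences on GRCh38.p14, written 5′ to 3′ with bases 2 to 8, the seed, in capitals.
miR-148a-3p: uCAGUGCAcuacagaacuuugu
miR-148b-3p: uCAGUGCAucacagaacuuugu
miR-152-3p: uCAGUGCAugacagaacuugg

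Counted from 1 at the 5′ end, miR-148a-3p and miR-148b-3p shared 20 of 22 bases and differed at C9U and U10C. MiR-148b-3p and miR-152-3p shared 19 of the 21 bases that both have and differed at C10G and U20G. MiR-148a-3p and miR-152-3p shared 18 of 21 and differed at C9U, U10G and U20G. All of these differences lie outside the seed. Reads with an error at these positions could be counted under another member, and how mismatches were treated in counting is not given in the sources used here.

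The mature sequences come from separate loci on GRCh38. MiR-148a-3p lies on the minus strand at chr7:25949922-25949943, in the hairpin MIR148A, where no other gene is annotated. MiR-148b-3p lies on the plus strand at chr12:54337278-54337299. Its hairpin MIR148B sits between exons of COPZ1, a gene for a zeta subunit of the coatomer that coats Golgi vesicles, on the same strand. MiR-152-3p lies on the minus strand at chr17:48037174-48037194, and its hairpin MIR152 sits between exons of COPZ2, the paralog of COPZ1, again on the same strand. Of the other hairpins in RefSeq, 0 overlapped any of the 3, on either strand.

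The letters CAGUGCA were held by 14 of 2370 mature miRNAs in the RefSeq table (0.591%), and at bases 2 to 8 only by the 3 members among them. A further 5 held them from base 1, a shift of a single base, as in miR-301a-3p, whose first 7 bases are in capitals.
miR-301a-3p: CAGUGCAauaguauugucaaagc
MiR-301a-3p, from another family, was counted 2674 (HCT116), 1901 (HCT116-R), 2948 (RKO) and 4416 (RKO-R) times, above each of the 3 members in every library. It had the most counts of the 5 in each library. In the same order miR-301b-3p had 915, 594, 1023 and 1215 counts. MiR-130b-3p had 73, 56, 283 and 283, below miR-148a-3p and miR-148b-3p in every library, and miR-3666 and miR-4295 had 0.

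Library totals ranged from 6818497 counts in HCT116-R to 7140460 in RKO, and a floor of 3 counts, chosen as the least count read as a level, corresponded to 0.420 to 0.440 CPM (counts scaled to the library total). Epithelial markers (miR-200a-3p, miR-200b-3p, miR-200c-3p, miR-141-3p and miR-429) were listed in all 4 libraries, 5 of 5. Their summed level was 62640 CPM (HCT116), 58276 (HCT116-R), 9800 (RKO) and 11260 (RKO-R), and miR-200c-3p alone was counted 291469, 286432, 649 and 1426 times in that order. Of 3 intestinal markers, miR-192-5p and miR-194-5p were listed in every library, and miR-215-5p was at 0 in all but HCT116-R, with a sum over the 3 from 267.8 to 442.6 CPM. Blood markers summed to between 5.64 and 26.7 CPM with 3 of 5 listed in every library. Skeletal muscle markers summed to at most 0.733 CPM, and the pair miR-143-3p and miR-145-5p, of smooth muscle and fibroblasts, summed to between 7.14 and 299 CPM. The endothelial marker miR-126-3p was at 3452 to 8331 CPM. The part of these markers in the results on the family was not tested.

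The level of each member is given in CPM of the library total, with the 95% Wilson confidence interval. The counts of miR-148a-3p were 851 (HCT116), 688 (HCT116-R), 808 (RKO) and 552 (RKO-R). Its levels in this order were 125 CPM (117 to 133), 101 (93.6 to 109), 113 (106 to 121) and 79.8 (73.5 to 86.8). The radioresistant library was the lower one in each pair, and the order from high to low was HCT116, RKO, HCT116-R, RKO-R. The counting intervals of HCT116 and RKO overlapped, as did those of RKO and HCT116-R, which are neighbours in this order. Those of HCT116-R and RKO-R did not, but the order of the last pair depends on the scaling. With TMM scaling over the 4 libraries it was kept (102 CPM in HCT116-R and 86.3 in RKO-R). With DESeq2 size factors the last pair of the order changed places (92.4 CPM in HCT116-R and 95.5 in RKO-R).

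The counts of miR-148b-3p, the least varied of the 3 by counts and by library totals, were 288 (HCT116), 233 (HCT116-R), 312 (RKO) and 300 (RKO-R). Its levels were 42.2 CPM (37.6 to 47.4), 34.2 (30.1 to 38.9), 43.7 (39.1 to 48.8) and 43.4 (38.8 to 48.6). The intervals of all 4 libraries overlapped with that of their neighbour in the order of levels. The intervals cover counting error only. With DESeq2 size factors miR-148b-3p ran from 31.3 CPM in HCT116-R to 51.9 in RKO-R. With the same factors miR-148a-3p ran from 92.4 CPM in HCT116-R to 122 in HCT116, so miR-148b-3p was then not the less varied.

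The counts of miR-152-3p were 27 (HCT116), 28 (HCT116-R), 1641 (RKO) and 864 (RKO-R). Its levels were 3.96 CPM (2.72 to 5.76), 4.11 (2.84 to 5.94), 230 (219 to 241) and 125 (117 to 134). Both libraries of the RKO background thus lay far above both of the HCT116 background. Within the HCT116 background the intervals overlapped, and within the RKO background they did not. MiR-152-3p was the most abundant member in RKO, at rank 115 of 1006 listed miRNAs, and in RKO-R, at rank 130 of 992. In HCT116 and HCT116-R it was the least abundant, at rank 423 of 1105 and 448 of 1198. By contrast miR-148a-3p stayed between rank 145 and 154, and miR-148b-3p between 178 and 219.

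**Figure D1:**
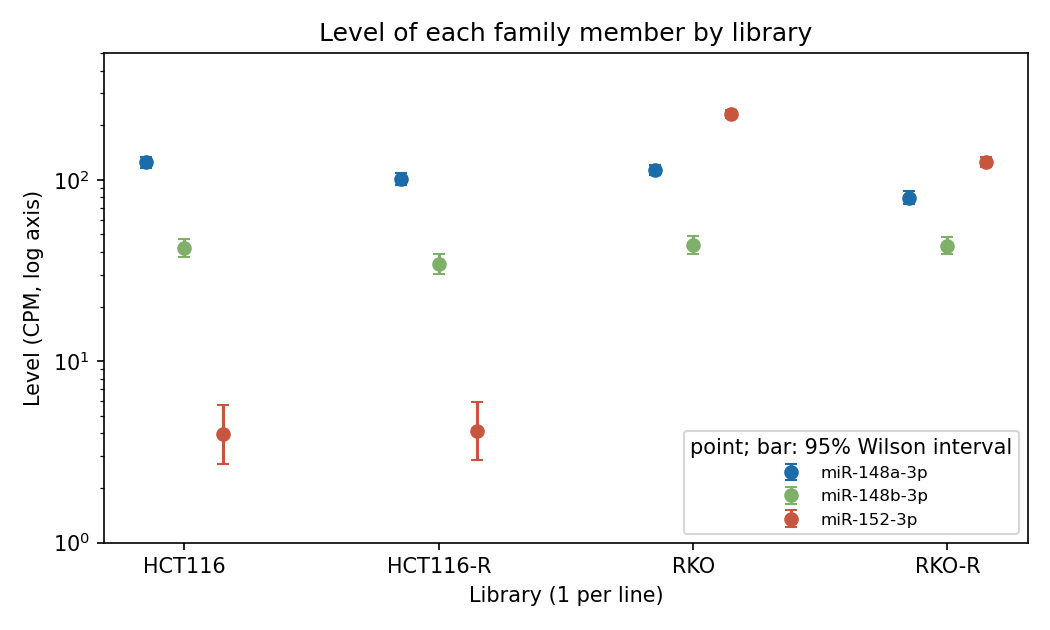
Level of miR-148a-3p, miR-148b-3p and miR-152-3p in CPM (log axis) in the 4 libraries; points are single libraries and bars are 95% Wilson intervals of counting error. MiR-148a-3p and miR-148b-3p stay within 79.8 to 125 and 34.2 to 43.7 CPM, while miR-152-3p is at 3.96 and 4.11 CPM in HCT116 and HCT116-R and at 230 and 125 CPM in RKO and RKO-R.

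In order to compare the make-up of the family independently of library scaling, each member was expressed as a share of the summed counts of the 3. The mature forms are 21 or 22 bases long, so no length correction was made. The efficiency of adapter ligation can differ between sequences, so shares are compared between libraries. In HCT116, miR-148a-3p made up 73.0% (95% Wilson confidence interval 70.4 to 75.5) of 1166 counts, miR-148b-3p 24.7% (22.3 to 27.3) and miR-152-3p 2.32% (1.60 to 3.35). In HCT116-R the shares of 949 counts were 72.5% (69.6 to 75.2), 24.6% (21.9 to 27.4) and 2.95% (2.05 to 4.23). The interval of each share overlapped between HCT116 and HCT116-R.

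In RKO the order was turned over. MiR-152-3p made up 59.4% (57.6 to 61.3) of 2761 counts, miR-148a-3p 29.3% (27.6 to 31.0) and miR-148b-3p 11.3% (10.2 to 12.5). In RKO-R, miR-152-3p made up 50.3% (48.0 to 52.7) of 1716 counts, miR-148a-3p 32.2% (30.0 to 34.4) and miR-148b-3p 17.5% (15.8 to 19.4). The counting intervals of miR-152-3p and of miR-148b-3p did not overlap between RKO and RKO-R, and those of miR-148a-3p did. These intervals cover counting error only and no spread between cultures.

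**Figure D2:**
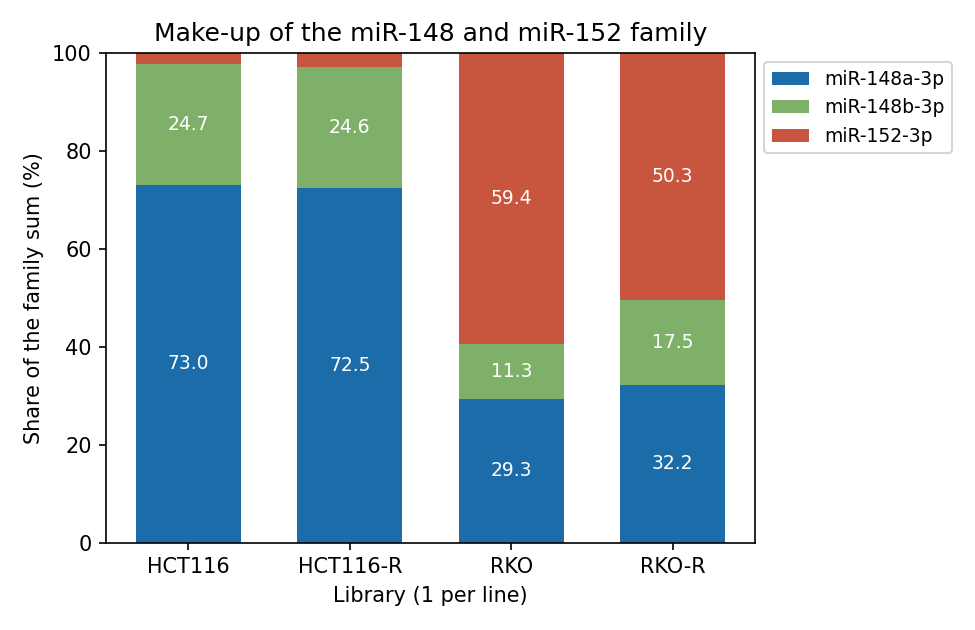
Share of each member in the summed counts of the 3 (percent, stacked bars) in each library. MiR-148a-3p holds 73.0 and 72.5% in HCT116 and HCT116-R, and miR-152-3p holds 59.4 and 50.3% in RKO and RKO-R against 2.32 and 2.95% in the HCT116 background.

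The summed level of the family was 171 CPM (161 to 181) for HCT116, 139 (131 to 148) for HCT116-R, 387 (373 to 401) for RKO and 248 (237 to 260) for RKO-R. It was 2.26-fold higher in RKO than in HCT116 and 1.78-fold higher in RKO-R than in HCT116-R. Without miR-152-3p, the sum of miR-148a-3p and miR-148b-3p was 167 CPM (HCT116), 135 (HCT116-R), 157 (RKO) and 123 (RKO-R). The higher level of the family in the RKO background was therefore carried by miR-152-3p. The family as a whole was a minor part of each library, with 0.0139 to 0.0387% of all counts.

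Differences between libraries were tested with the exact test of edgeR at a biological coefficient of variation (BCV) of 0.2, the value named in the methods, with TMM scaling within the pair. A miRNA was called at a p under 0.05 after Benjamini-Hochberg adjustment across the whole table of a pair (every miRNA counted at least 1 time). Such a test compares 2 libraries and not the conditions, and its standard errors (SE) and p-values rest on the assumed BCV. The BCV that edgeR estimated from all 4 libraries was 0.481, so calls at that value are given beside the others, as a setting added after the data were seen. It comes from a fit with factors for line and for radioresistance and 1 residual degree of freedom. Its spread includes differences between the changes of the lines and is not a spread of replicates. The first comparison asks whether family members differ between a radioresistant line and its parent.

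In HCT116-R against HCT116, 0 of 3 members were called, where 4.01% of the 1322 miRNAs tested were. MiR-148a-3p had a log2 fold change of -0.33 (SE 0.41) and miR-148b-3p of -0.33 (SE 0.43), so neither passed the threshold (both at an adjusted p of 1 by the edgeR exact test). The value for miR-152-3p was 0.03 (SE 0.56, adjusted p = 1 in the same test). The intervals, of 1.96 SE to either side, ran from -1.14 to 0.49 for miR-148a-3p, from -1.16 to 0.51 for miR-148b-3p and from -1.07 to 1.14 for miR-152-3p. Differences within these intervals are compatible with the counts at this BCV, and the bounds are not limits of detection. At the estimated BCV the interval of miR-148a-3p, as an example, ran from -2.26 to 1.60, and 0 of 3 members were called, where 1.06% of all miRNAs were. The median over the 3 members was -0.33, against 0.07 over all miRNAs tested.

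In RKO-R against RKO, 0 of 3 members were again called, where 5.54% of 1155 miRNAs were. MiR-152-3p had the largest difference, a log2 fold change of -0.64 (SE 0.41, interval -1.45 to 0.17, adjusted p = 0.636 by edgeR's exact test). MiR-148a-3p was at -0.27 (SE 0.42, interval -1.08 to 0.55) and miR-148b-3p at 0.23 (SE 0.42, interval -0.61 to 1.06). The median over the members was -0.27, against 0.02 over all miRNAs. Without TMM all log2 values of this pair shift by -0.24, and miR-148b-3p then lies at -0.0099, below 0. At a BCV of 0.1, miR-152-3p was called (adjusted p = 0.0251), where 12.8% of all miRNAs were. At the estimated BCV 0 of 3 were called, where 0.433% of all miRNAs were, and the interval of miR-152-3p ran from -2.57 to 1.29. The share of all miRNAs at an unadjusted p under 0.05 is not given here, so nothing is read from the members at that threshold.

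The change in the RKO pair was then compared with the change in the HCT116 pair by an interaction term in edgeR at the same BCV. Of the 3 members 0 were called, where 4.75% of 1474 miRNAs were. The difference between the log2 changes (RKO pair minus HCT116 pair) was -0.71 (SE 0.70, adjusted p = 0.863) for miR-152-3p and 0.52 (SE 0.60, adjusted p = 0.984) for miR-148b-3p. For miR-148a-3p it was 0.03 (SE 0.59), the smallest of the 3.

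The second comparison asks whether members differ between the cell lines. In HCT116 against RKO, 1 of 3 members was called, where 25.5% of 1289 miRNAs were called and 8.46% were lower in HCT116. A count of 1 in 3 is close to this background and does not set the family apart. The called member was miR-152-3p, at 3.96 CPM in HCT116 and 230 in RKO. Its log2 fold change was -5.73 (SE 0.49, interval -6.70 to -4.76, adjusted p = 1.1e-24 by edgeR's exact test), which is 53.0-fold lower in HCT116. At the estimated BCV it was called as well (interval -7.73 to -3.73, adjusted p = 0.00016 by the same test), where 8.69% of all miRNAs were. MiR-148a-3p was at 0.27 (SE 0.41, interval -0.55 to 1.08) and miR-148b-3p at 0.08 (SE 0.42, interval -0.76 to 0.91).

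In HCT116-R against RKO-R, 1 of 3 members was called, against 23.2% of 1333 miRNAs in either direction and 7.2% lower in HCT116-R. It was again miR-152-3p, at 4.11 CPM in HCT116-R and 125 in RKO-R, with a log2 fold change of -5.25 (SE 0.49, interval -6.22 to -4.29, adjusted p = 2.8e-21 by edgeR's exact test). This is 38.2-fold lower in HCT116-R. It was called at the estimated BCV too (interval -7.25 to -3.26, adjusted p = 0.00062), where 7.2% of all miRNAs were. MiR-148b-3p was at -0.68 (SE 0.43, adjusted p = 0.335) and miR-148a-3p at 0.0037 (SE 0.42, adjusted p = 1). At a BCV of 0.1 miR-148b-3p was called as well, where 31.4% of all miRNAs were. All log2 values of this comparison shift by 0.33 without TMM, and those of HCT116 against RKO by -0.13.

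**Figure D3:**
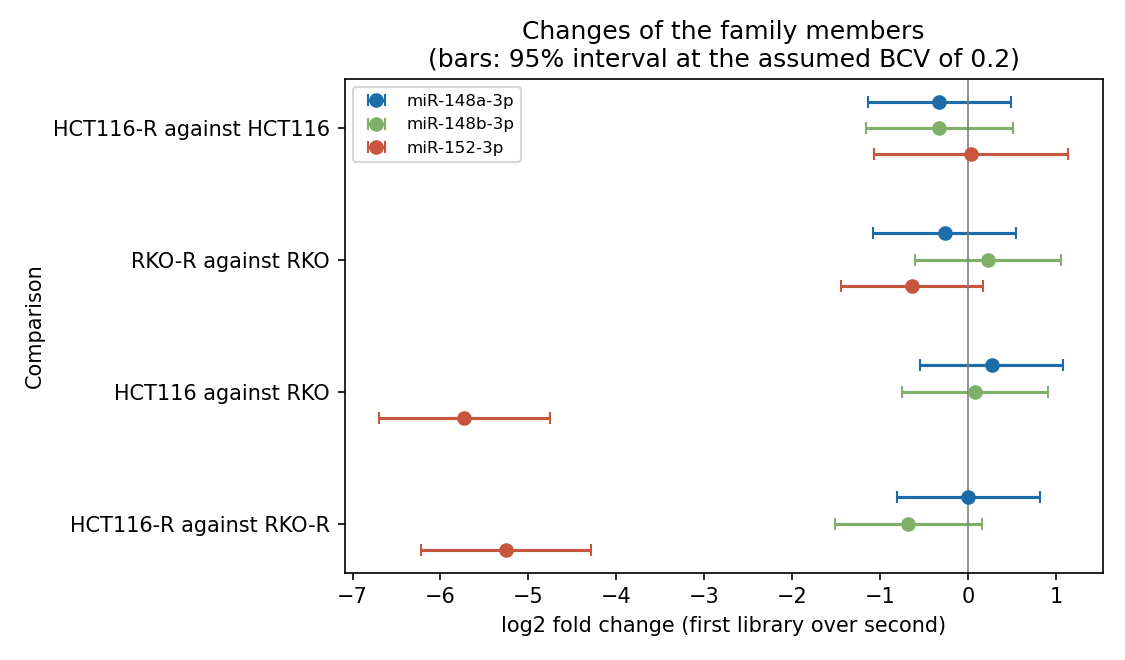
Log2 fold change (first library over second) of each member in the 4 comparisons of libraries; points are fitted values and bars are 1.96 SE at the assumed BCV of 0.2. The bars of miR-152-3p lie below 0 in both comparisons between cell lines (-5.73 and -5.25), and all other bars cross 0.

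When all 4 libraries were fitted together by the quasi-likelihood test of edgeR (factors for line and for radioresistance, with 1 residual degree of freedom), miR-152-3p was again the member called for cell line. Its log2 difference, RKO background minus HCT116 background, was 5.49 (adjusted p = 0.0031), where 28.3% of 598 miRNAs were called. For miR-148a-3p this difference was -0.14 (adjusted p = 0.887) and for miR-148b-3p 0.30 (adjusted p = 0.765). For radioresistance, 0 of 3 members were called by edgeR, as by DESeq2, and the adjusted p was 0.998 for each in edgeR, where 0.669% of miRNAs were called. The unadjusted p of the same edgeR test was 0.55 for miR-148a-3p, 0.89 for miR-148b-3p and 0.55 for miR-152-3p.

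The ratio of one member to another within a library does not depend on library scaling. The log2 ratio of miR-152-3p to miR-148a-3p was -4.98 (HCT116), -4.62 (HCT116-R), 1.02 (RKO) and 0.65 (RKO-R). It thus changed sign between the backgrounds. The shift between HCT116 and RKO was -6.00 (SE 0.65 at the assumed BCV, interval -7.27 to -4.74), and between HCT116-R and RKO-R it was -5.27 (SE 0.65, interval -6.53 to -4.00). For RKO-R against RKO it was -0.38 (SE 0.59, interval -1.52 to 0.77). The ratio of miR-152-3p to miR-148b-3p shifted by -0.87 in that pair (SE 0.59, interval -2.03 to 0.29). Both intervals span 0, so at this BCV the changed shares of the RKO pair are not set apart from no change. The log2 ratio of miR-148b-3p to miR-148a-3p was -1.56 in both HCT116 and HCT116-R, against -1.37 (RKO) and -0.88 (RKO-R). Its largest shift between compared libraries was -0.68 (SE 0.60, interval -1.85 to 0.49), between HCT116-R and RKO-R.

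The near-identity of the sequences bears on the low counts of miR-152-3p. In HCT116 and HCT116-R its counts were 2.37 and 3.04% of the 1139 and 921 counts of miR-148a-3p and miR-148b-3p together. In RKO and RKO-R they were 147 and 101% of the 1120 and 852 counts of the same members. Whether the 27 and 28 counts in the HCT116 background are reads of miR-152-3p or misassigned reads of its relatives was not tested. In bulk RNA, fewer cells carrying a miRNA and less of it per cell cannot be told apart.

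The other arms of the hairpins had low counts, and those of MIR148B and MIR152 were close to or below the floor of 3 counts. The counts of miR-148a-5p were 19 (HCT116), 19 (HCT116-R), 10 (RKO) and 7 (RKO-R), from 1.22 to 2.69% of both arms of MIR148A. Those of miR-152-5p were 1 (HCT116), 0 (HCT116-R), 7 (RKO) and 5 (RKO-R). In RKO and RKO-R these were 0.425% (0.206 to 0.874) and 0.575% (0.246 to 1.34) of both arms. With 27 and 28 counts of the 3p arm in HCT116 and HCT116-R, a share of this size could not be detected there, where the floor is 10.7% in both. MiR-148b-5p had 1 count in RKO-R and 0 in the others. The upper Wilson limits of its share of both arms were 1.22% in RKO, 1.32% in HCT116, 1.62% in HCT116-R and 1.86% in RKO-R. The 3p arm was thus the major one of each hairpin wherever the depth allowed a statement.

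The miRNAs nearest to each member in profile were sought among 343 other miRNAs that reached 100 counts in 1 library or more. Likeness was the root mean square difference of log2(CPM + 1), centred on the mean of each miRNA over the 4 libraries. For miR-148a-3p, the nearest were miR-766-3p (0.066), miR-320a-3p (0.071) and miR-423-3p (0.072), against a median of 0.67 over all 343. For miR-148b-3p they were miR-26b-5p (0.058), miR-374b-3p (0.069) and miR-378a-5p (0.079), against a median of 0.66. These are miRNAs of nearly level profile.

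For miR-152-3p the nearest were miR-598-3p (0.29), miR-181c-5p (0.71) and miR-1304-3p (0.72), against a median of 2.71. MiR-598-3p was counted 0 (HCT116), 1 (HCT116-R), 211 (RKO) and 165 (RKO-R) times. MiR-181c-5p had 1031, 940, 16026 and 10701 counts in the same order, and miR-1304-3p 0, 0, 143 and 48. The shared pattern is what they were chosen by. The distance of miR-148a-3p from miR-148b-3p was 0.28, and both were far from miR-152-3p, at 2.67 and 2.47. The likeness rests on 4 libraries and is a description.

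**Figure D4:**
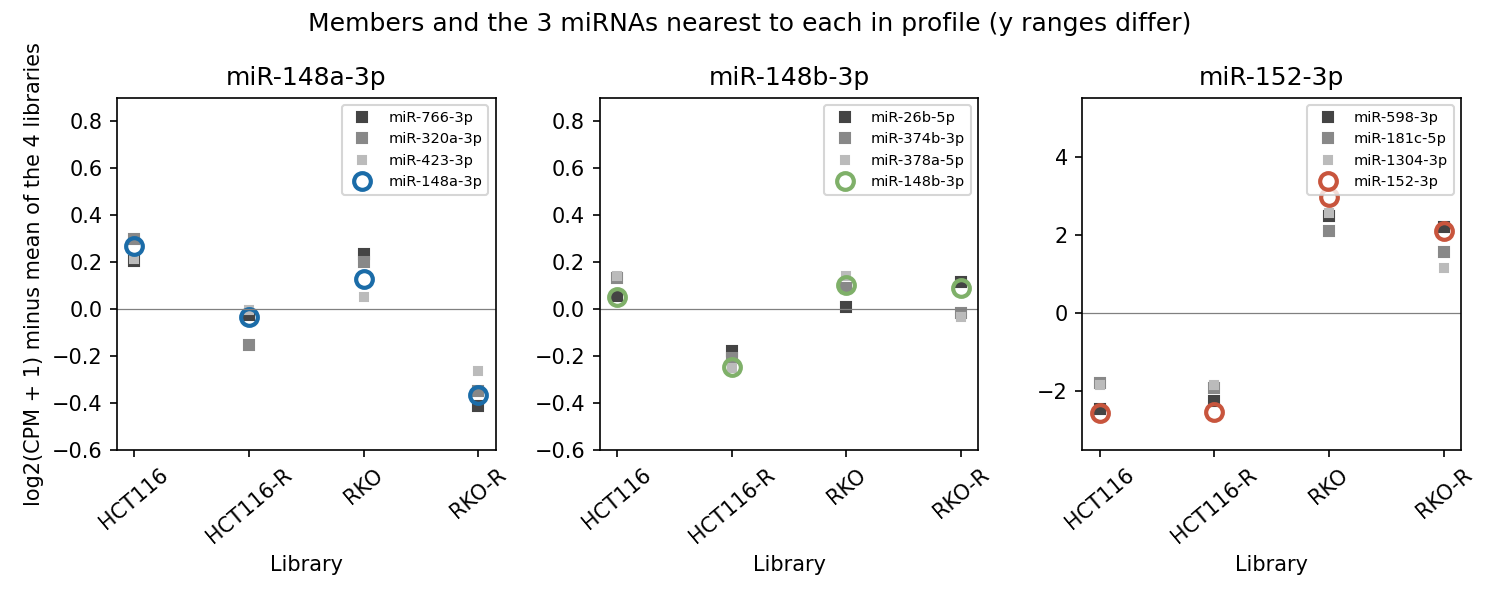
Log2(CPM + 1) minus its mean over the 4 libraries (y axis, ranges differ between panels) by library for each member (open circles) and the 3 miRNAs nearest to it (squares). MiR-148a-3p stays between -0.37 and 0.27, while miR-152-3p runs from -2.56 in HCT116 to 2.98 in RKO.

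DNMT1 and other chromatin-modifying enzymes are also described targets of further miRNAs, and 11 of these were examined: miR-29a-3p, miR-29b-3p, miR-29c-3p, miR-143-3p, miR-342-3p, miR-185-5p, miR-101-3p, miR-26a-5p, miR-26b-5p, miR-449a and miR-126-3p. MiR-126-3p and miR-143-3p are also among the markers of other cell types above. Of the 11, 1 was called in HCT116-R against HCT116, beside 4.01% of all miRNAs, and 1 in RKO-R against RKO, beside 5.54%. MiR-342-3p, described as targeting DNMT1, fell from 690 to 270 counts in the HCT116 pair (log2 fold change -1.37, SE 0.42, adjusted p = 0.036 by edgeR's exact test). MiR-143-3p, described as targeting DNMT3A, rose from 51 to 522 counts in the RKO pair (log2 fold change 3.64, SE 0.46, adjusted p = 1.7e-11 in the same test). Neither was called at the estimated BCV (adjusted p = 1 for miR-342-3p and 0.2 for miR-143-3p in that test). The median over the list was -0.39 for HCT116-R against HCT116 and 0.35 for RKO-R against RKO, beside 0.07 and 0.02 over all miRNAs.

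Between the cell lines, 4 of the 11 were called in HCT116 against RKO, with 2 higher and 2 lower in HCT116, where 25.5% of all miRNAs were called, 17.1% higher and 8.46% lower. MiR-29a-3p and miR-29b-3p, which target the de novo DNA methyltransferases, were lower in HCT116, as miR-152-3p was. MiR-29a-3p was at -1.12 on the log2 scale (SE 0.41, adjusted p = 0.031) and miR-29b-3p at -1.46 (SE 0.41, adjusted p = 0.0029). MiR-342-3p and miR-143-3p were higher in HCT116, with miR-342-3p at 690 counts in HCT116 and 0 in RKO, and miR-143-3p at 1733 and 51. In HCT116-R against RKO-R, 4 were called, with 1 higher (miR-342-3p, 270 counts against 1) and 3 lower (miR-29a-3p, miR-29b-3p and miR-126-3p), where 23.2% of all miRNAs were called, 16% higher and 7.2% lower. At the estimated BCV the lower ones were no longer called in either comparison (adjusted p from 0.44 to 0.75 in edgeR's exact test), while miR-342-3p was called in both and miR-143-3p in HCT116 against RKO. The list median was 0.17 and -0.77 in these comparisons, against 0.18 and 0.59 over all miRNAs. Over miRNAs with at least 10 counts in either library of the pair, the median was 0.22 and 0.33.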

How the data were processed

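Small RNA libraries of the 18 to 30 nt fraction, made with unique molecular identifiers, were sequenced on the BGISEQ-500 platform, 1 per line. The authors deposited raw read counts per mature miRNA, without normalization. The submitters' processing notes list Bowtie2 and hg38, without a role. The miRNA annotation, the use of strand and whether identifiers were collapsed are not given in the sources used here, so intervals cover counting error only. The sample labels gave the groups and the methods gave the doses. A miRNA missing from a library was given 0 counts.

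Counts were scaled by the library total to CPM. Pairs of libraries were compared in R 4.3.3 with edgeR 4.0.16, by its exact test with TMM and a BCV of 0.2. SE were derived from the counts and that BCV. The interaction was tested by a likelihood ratio test in edgeR at the same BCV. The additive fit of all 4 libraries used edgeR's quasi-likelihood test after its filter on low counts. P-values were adjusted over all miRNAs tested. The scripts were tested on simulated data. Alternatives were a BCV of 0.1 or 0.4, the BCV estimated by the additive fit, no TMM, the size factors and Wald test of DESeq2 (version 1.42.0), filters on low counts, an unadjusted p and the sum of both arms.

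Sequences and hairpins came from RefSeq tables on GRCh38.p14, in which 1313 of the 1474 names matched a mature miRNA and which held the 3 members. Genes around them came from GENCODE release 29 on GRCh38. The rule named the 3 members, their other arms, listed miRNAs with the same seed (0 others), the 3 nearest profiles per member and called members of the list of chromatin-related miRNAs. MiR-301a-3p, the other miRNAs that hold the seed letters from base 1 and the miRNAs of the HOX clusters were named outside this rule. Members and lists were chosen with earlier results of these data known. No column of another sample was used. Python 3.11.15 was used for the other steps, with pandas 2.3.3 and numpy 2.4.6 for tables, scipy 1.17.1 for intervals and matplotlib 3.10.9 for plots.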

Additional observations from a re-analysis of the deposited data

How the results depend on the processing

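The labels carry no replicate numbers to block on. The additive fit, with a factor for line, compares each radioresistant library with its own parent. Leaving out 1 of its 4 libraries would leave it no residual degree of freedom, so none was left out. At a BCV of 0.1, 1 of 3 members was called in RKO-R against RKO (miR-152-3p) and 2 in HCT116-R against RKO-R (miR-152-3p and miR-148b-3p, adjusted p = 0.0186). At a BCV of 0.4, at the estimated BCV of 0.481 (added after the data were seen) and under each other alternative, the counts of members called were those reported. The call of miR-152-3p between cell lines held in every alternative run. Values near 0 changed sign. MiR-148b-3p moved to -0.0099 in RKO-R against RKO without TMM. In HCT116 against RKO it moved to -0.050 without TMM, -0.041 with DESeq2 size factors and -0.00069 with a minimum of 10 counts. MiR-148a-3p moved to -0.0042 in HCT116-R against RKO-R with DESeq2 size factors, and its difference between the pairs to -0.20 without TMM. Without TMM all log2 values shift alike, by about -0.24 in RKO-R against RKO and -0.13 in HCT116 against RKO. In the other settings with a sign change, all 3 members likewise moved down together. With DESeq2 size factors in HCT116 against RKO, miR-148a-3p went from 0.27 to 0.15 and miR-152-3p from -5.73 to -5.84. Some levels moved beyond their counting intervals with other scalings, and the rest stayed within them. With TMM those that moved were 104 CPM for miR-148a-3p and 211 for miR-152-3p in RKO and 135 for miR-152-3p in RKO-R. With DESeq2 size factors miR-148a-3p was at 92.4 CPM (HCT116-R), 105 (RKO) and 95.5 (RKO-R), miR-148b-3p at 51.9 in RKO-R, and miR-152-3p at 214 in RKO and 149.5 in RKO-R. Shares with both arms summed stayed within their intervals. The low counts of miR-152-3p in HCT116 and HCT116-R and of the 5p arms limit what can be said of their changes.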

Other observations

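The hairpins of the family share a feature of position. Each lies on a chromosome arm that also carries a HOX cluster, whose miRNAs of the miR-10, miR-196 and miR-615 families regulate HOX genes. MIR148A was 1219 kb from MIR196B of the HOXA cluster, with 0 hairpins of the RefSeq table nearer. MIR148B was 303 kb from MIR615 of the HOXC cluster, with 1 hairpin nearer. MIR152 was 543 kb from MIR10A of the HOXB cluster, with 2 nearer. MiR-10a-5p was counted 79455 (HCT116), 105541 (HCT116-R), 21141 (RKO) and 26693 (RKO-R) times, and was higher in HCT116 than in RKO (log2 fold change 2.10, SE 0.41, adjusted p = 8.9e-06 by edgeR's exact test). It was also higher in HCT116-R than in RKO-R (1.67, SE 0.41, adjusted p = 0.00062 by the same test). MiR-196b-5p had 15273, 13657, 18232 and 20329 counts in the same order and was not called between HCT116 and RKO (log2 fold change -0.06, SE 0.41). Nor was it called between HCT116-R and RKO-R (-0.89, SE 0.41). MiR-615-3p had 773, 1137, 1184 and 313 counts, and was not called between HCT116 and RKO (log2 fold change -0.42, SE 0.41), while it was higher in HCT116-R than in RKO-R (1.55, SE 0.42, adjusted p = 0.0022 by edgeR's exact test). At the estimated BCV of 0.481, miR-10a-5p was not called in HCT116 against RKO (adjusted p = 0.28 in the same test), where 8.69% of all miRNAs were. In HCT116-R against RKO-R, where 7.2% were called at that BCV, neither miR-10a-5p (adjusted p = 0.52) nor miR-615-3p (0.56) was. MiR-196a-5p, whose hairpins MIR196A2 and MIR196A1 lie 345 kb from MIR148B and 595 kb from MIR152, had 24567, 24026, 21062 and 25066 counts. It was not called in HCT116 against RKO (log2 fold change 0.41, SE 0.41) or in HCT116-R against RKO-R (-0.38, SE 0.41). At the assumed BCV, 25.5% and 23.2% of all miRNAs were called in these comparisons. The miRNAs of the HOX clusters were chosen by their position, after the values of the family had been seen.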
